A study of Mus musculus with 32 samples.

Results

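Interferon-stimulated genes are the genes that cells switch on when they sense interferon. The 10 members described here are Ifit1, Ifit3, Ifitm3, Irf7, Irf9, Bst2, Isg15, Stat2, Oasl2 and Rtp4, taken by symbol from the 33000 genes of the count table, and each symbol matched 1 row. They were followed in frontal cortex of 3-month-old C57BL/6 mice of 2 genotypes, wild-type (WT) and homozygous GFAP-IL6, in which the promoter of the astrocyte gene Gfap drives an interleukin 6 transgene. No other allele or agent is given for either genotype. Libraries were made by 3'Pool-seq, a method that barcodes samples during oligo-dT primed reverse transcription, pools them and reads the 3' ends of mRNAs. Total RNA entered the reverse transcription at 50, 10, 1 or 0.5 ng, with 4 replicates of each genotype at each amount and 32 libraries in all.

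Type I interferons bind a cell surface receptor whose kinases JAK1 and TYK2 phosphorylate STAT2. STAT2 joins IRF9 in the complex ISGF3, which binds a DNA element called ISRE and switches on antiviral genes. Interleukin 6 signals through gp130 and mainly STAT3, which binds a different element called GAS, so an interferon-stimulated gene can also carry sites for STAT proteins that other cytokines activate. Microglia, endothelial cells, astrocytes and neurons all hold parts of this machinery in the brain.

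Promoter sequences of the members are shown because they are the part of these genes that the pathway is known to act on. RefSeq promoter windows of GRCm38.p6, from 250 bases before to 50 bases after the gene start, were held for 9 of the 10 members, all but Rtp4, and Irf9 had 2 windows. The ISRE core was searched as GAAANNGAAA and the GAS element as TTCNNNGAA, on both strands. The ISRE core was present in the windows of 6 members, Isg15, Ifitm3, Bst2, Stat2, Ifit3 and Ifit1. Of all 32851 mouse promoter windows of the same length, 1131 (3.44%) held it. The GAS element was present in the windows of Ifitm3 and Bst2, against 2726 (8.30%) of all windows. The windows of Irf7, Oasl2 and Irf9 held neither run of letters, which says nothing more about those genes. Matches are printed in capitals below, 5' to 3' on the strand of the gene, with up to 20 bases on either side except for Ifitm3, where the whole stretch to 30 bases past the start is given because Ifitm3 was the member whose expression differed most clearly.
Isg15, chr4:156200855-156200916, minus strand: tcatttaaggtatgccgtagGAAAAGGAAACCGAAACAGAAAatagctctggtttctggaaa
Ifitm3, chr7:141010715-141010994, minus strand: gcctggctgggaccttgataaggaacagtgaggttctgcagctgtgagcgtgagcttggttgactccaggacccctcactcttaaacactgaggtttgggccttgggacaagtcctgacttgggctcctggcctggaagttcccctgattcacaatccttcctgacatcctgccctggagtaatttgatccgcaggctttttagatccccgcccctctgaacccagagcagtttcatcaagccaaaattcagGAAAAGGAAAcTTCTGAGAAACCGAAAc
Bst2, chr8:71537567-71537622, minus strand: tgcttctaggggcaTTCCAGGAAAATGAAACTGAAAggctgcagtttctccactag
Stat2, chr10:128270256-128270305, plus strand: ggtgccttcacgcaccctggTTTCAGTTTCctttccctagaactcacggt
Ifit3, chr19:34583353-34583436, plus strand: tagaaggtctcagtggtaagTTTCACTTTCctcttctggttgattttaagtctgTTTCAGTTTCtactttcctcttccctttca
Ifit1, chr19:34640765-34640833, plus strand: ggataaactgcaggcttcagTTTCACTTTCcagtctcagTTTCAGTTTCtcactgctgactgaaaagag

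Isg15 held 3 overlapping ISRE cores, Ifitm3, Bst2, Ifit3 and Ifit1 held 2 each and Stat2 held 1. In Stat2, Ifit3 and Ifit1 the cores lay on the opposite strand and therefore read TTTC rather than GAAA. In Ifitm3 the GAS match began 14 bases into the transcribed part and overlapped the second ISRE core, which began at base 20, and in Bst2 the GAS match, beginning at base -136, overlapped the first of its cores. A match of letters is a description of the sequence and does not show that a factor binds there.

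**Figure D1:**
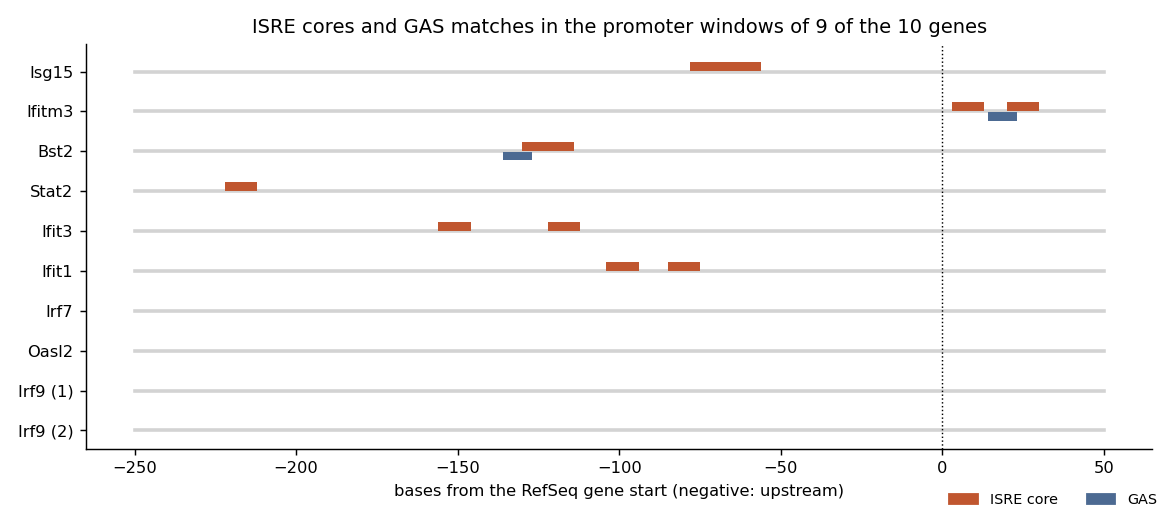
Position of each ISRE core (orange) and GAS match (blue) in the promoter windows of 9 of the 10 members, in bases from the RefSeq gene start on the strand of the gene. Grey lines are the windows from 250 bases before to 50 bases after the start, and Irf7, Oasl2 and the 2 windows of Irf9 are empty.

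Total counts ran from 1071895 to 7538356 per library at 50 ng, from 1064514 to 9840302 at 10 ng, from 261378 to 2800270 at 1 ng and from 295022 to 2722389 at 0.5 ng. Expression is given in CPM, counts scaled to the same library total, without length correction, so levels are compared between libraries and not between genes. A count of 0 allows up to 3 counts, and such limits cover counting error only. The transgene's gene Il6 had 0 to 1 counts in WT and 4 to 22 counts in GFAP-IL6 libraries at 50 ng, 0 to 3 and 2 to 41 counts at 10 ng, and was at 0 in all 8 libraries at 0.5 ng. At 1 ng the WT replicate 3 library had 13 Il6 counts, while 2 GFAP-IL6 libraries had 0. Whether the transgene's own message ends in the counted part of Il6 is not given in the sources used here. Neuronal genes were abundant, with Snap25 at 4246 ± 367 CPM in WT and 3818 ± 493 CPM in GFAP-IL6 (SD, n = 4) at 50 ng.

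How often the members were seen depended on the amount of RNA. At 50 ng, 6 of the 80 values of the 10 members in 8 libraries were 0 (7.5%), at 10 ng 2 of 80 (2.5%), at 1 ng 36 of 80 (45%) and at 0.5 ng 40 of 80 (50%). Depth was lower at the 2 smaller amounts as well, and the parts of depth and RNA amount in the zeros cannot be told apart here. Ifitm3 was the only member with counts in all 8 libraries of every amount. The edgeR filter on low counts let 7 members through at 50 ng and the same number at 10 ng, 2 at 1 ng, 3 at 0.5 ng and 8 when the counts of the same genotype and replicate number were summed over the 4 amounts. Irf7 and Isg15 passed in none of these 5 comparisons.

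Ifitm3, an interferon-induced membrane protein that restricts the entry of enveloped viruses into cells, was the member that rose in GFAP-IL6 cortex. At 50 ng its CPM in WT was 54.8, 57.9, 51.5 and 45.1 for replicates 1 to 4, and in GFAP-IL6 126.6, 125.0, 160.2 and 71.7. All 4 GFAP-IL6 libraries lay above all 4 WT libraries, and GFAP-IL6 replicate 4 was the lowest of its group. The means were 52.3 ± 5.49 and 121 ± 36.6 CPM (SD, n = 4), a ratio of 2.31. The log2 fold change was 1.17 (SE 0.21, edgeR Benjamini-Hochberg adjusted p = 0.0115).

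At 10 ng Ifitm3 stood at 62.3, 68.0, 45.7 and 44.4 CPM in WT and at 118.9, 132.5, 143.2 and 82.3 CPM in GFAP-IL6. The groups again did not overlap, replicate 4 was again the lowest GFAP-IL6 library, and the log2 fold change was 1.08 (SE 0.19, edgeR adjusted p = 0.00102). With the 4 amounts summed, WT read 55.3, 57.2, 44.2 and 43.8 CPM and GFAP-IL6 128, 129, 137 and 83.8 CPM. The summed counts gave the same order of groups, at a log2 fold change of 1.23 (SE 0.16, edgeR adjusted p = 7.99e-05).

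At the smaller amounts the difference in Ifitm3 had a similar size but did not pass the adjusted test. At 1 ng WT libraries held 24.9, 46.4, 35.3 and 55.6 CPM and GFAP-IL6 libraries 177.3, 103.3, 137.1 and 123.9 CPM. The log2 fold change was 1.74 (SE 0.34, edgeR adjusted p = 0.0697). At 0.5 ng WT libraries held 67.4, 28.2, 27.8 and 27.0 CPM and GFAP-IL6 libraries 111.5, 155.9, 70.5 and 73.1 CPM, a log2 fold change of 1.40 (SE 0.54, edgeR adjusted p = 0.9999). GFAP-IL6 libraries lay above all WT libraries at each amount, with the narrowest gap at 0.5 ng, between WT replicate 1 at 67.4 and GFAP-IL6 replicate 3 at 70.5 CPM. With TMM scaling of the CPM the Ifitm3 groups overlapped at 0.5 ng.

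The call of Ifitm3 at 50 ng was lost when WT replicate 2, WT replicate 4, GFAP-IL6 replicate 2 or GFAP-IL6 replicate 3 was left out, with an adjusted p of up to 0.0970, and in the single fit of all 32 libraries, at 0.554. Without GFAP-IL6 replicate 4 the log2 fold change was 1.41 and the adjusted p was 4.44e-08 at 50 ng. The call at 10 ng held without any 1 library, with an adjusted p of at most 0.0141, and was lost in the single fit. That fit used 1 spread per gene for all amounts, and the spread was larger at 1 and 0.5 ng. The call on the summed counts held in all 12 alternatives, at log2 fold changes from 1.14 to 1.36. Ifitm genes are similar in sequence and lie close together, and only uniquely aligned reads were counted, so reads shared between copies could be missing or misplaced.

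**Figure D2:**
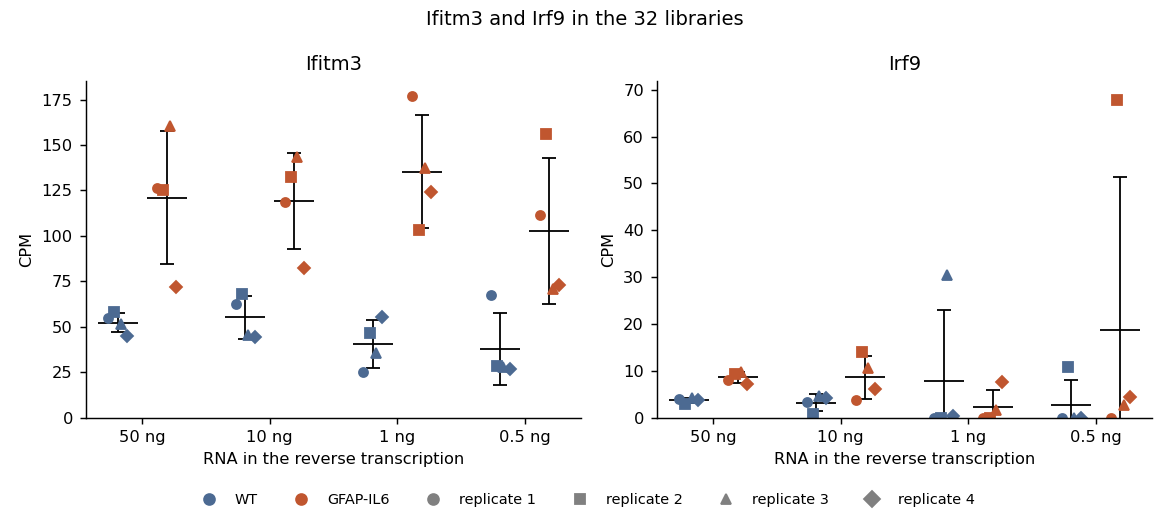
CPM of Ifitm3 (left) and Irf9 (right) in each of the 32 libraries by RNA amount, WT in blue and GFAP-IL6 in orange, with a marker shape for each replicate and the mean ± SD in black (bars cut at 0). GFAP-IL6 lay above WT for Ifitm3 at every amount, while Irf9 was separated at 50 ng and at 1 and 0.5 ng held single libraries at 30.5 and 67.8 CPM.

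Irf9, the DNA-binding subunit of ISGF3, separated the genotypes at 50 ng, but its difference did not pass adjustment. At 50 ng Irf9 stood at 3.87, 3.01, 4.17 and 3.71 CPM in WT and at 8.11, 9.33, 9.68 and 7.17 CPM in GFAP-IL6, so the groups did not overlap. The log2 fold change was 1.12 (SE 0.33, edgeR adjusted p = 0.404). At 10 ng WT held 3.29, 0.66, 4.55 and 4.28 CPM and GFAP-IL6 3.69, 14.1, 10.5 and 6.10 CPM. Here GFAP-IL6 replicate 1 fell within the WT range, and the log2 fold change was 1.20 (SE 0.52, edgeR adjusted p = 0.612). On the summed counts WT held 2.68, 2.72, 7.03 and 3.09 CPM and GFAP-IL6 4.11, 16.7, 7.87 and 6.35 CPM. GFAP-IL6 replicates 1 and 4 lay below WT replicate 3, and the log2 fold change of 1.07 (SE 0.42, edgeR adjusted p = 0.502) was 0.60 without GFAP-IL6 replicate 2 and 1.47 without WT replicate 3. At 1 and 0.5 ng Irf9 was not tested, with 0 counts in 2 WT and 2 GFAP-IL6 libraries at 1 ng. In no alternative was it called. Irf9 overlaps the gene Rnf31 on the same strand by 123 bases, away from the 3' end of Irf9.

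Stat2, the partner of Irf9 in ISGF3, did not separate the genotypes. At 50 ng WT libraries held 12.2, 9.03, 7.51 and 10.5 CPM and GFAP-IL6 libraries 6.08, 7.46, 9.91 and 13.1 CPM, with a log2 fold change of -0.11 (SE 0.31, edgeR adjusted p = 0.948). GFAP-IL6 replicate 4, lowest for Ifitm3, was the highest for Stat2 in this group. On the summed counts the log2 fold change was 0.11 (SE 0.35, edgeR adjusted p = 0.956).

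Irf7, a transcription factor that amplifies interferon production, was too sparse for the edgeR test. At 10 ng it had 0, 1, 3 and 2 counts in WT and 5, 1, 16 and 9 counts in GFAP-IL6, or at most 0.758 CPM in WT and at least 0.915 CPM in GFAP-IL6. The CPM values did not overlap, and the exact two-sided permutation test over libraries gave p = 0.0286, the smallest that 4 against 4 allows. At 50 ng Irf7 ranged from 0 to 1.06 CPM in WT and from 0.290 to 2.80 CPM in GFAP-IL6 (exact permutation p = 0.6), so the groups overlapped. On the summed counts it had 1, 1, 5 and 17 counts in WT against 6, 4, 18 and 12 in GFAP-IL6 (exact permutation p = 0.114). The 3' end of Irf7 lies within Phrf1, a gene on the opposite strand at 17.0 CPM, over 45 bases, and whether the counting used strand was not stated.

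Isg15, a ubiquitin-like protein that is joined to other proteins, was also at the limit of detection. At 50 ng it had 0, 0, 0 and 3 counts in WT and 3, 0, 4 and 2 counts in GFAP-IL6. On the summed counts it had 5, 0, 5 and 6 counts in WT and 9, 2, 12 and 8 in GFAP-IL6, or 0.307 ± 0.223 and 0.725 ± 0.240 CPM (SD, n = 4, exact permutation p = 0.0857). The ranges overlapped, and a difference in Isg15 was not detectable at this depth.

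Oasl2, a relative of the oligoadenylate synthetases that sense double-stranded RNA, was tested on the summed counts only. WT held 0.982, 0.545, 1.19 and 0.761 CPM, from 2 to 16 counts, and GFAP-IL6 1.72, 3.34, 1.76 and 1.58 CPM, from 9 to 33 counts. The groups did not overlap, while the log2 fold change of 1.12 (SE 0.58) had an edgeR adjusted p of 0.657. At 50 ng the groups overlapped, at 0 to 2.50 CPM in WT and 1.79 to 4.66 CPM in GFAP-IL6.

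Rtp4, a chaperone of receptor proteins that is induced by interferon, had its lowest GFAP-IL6 value in replicate 4 at 50 ng, as Ifitm3 did. WT stood at 4.43, 2.26, 3.62 and 4.64 CPM and GFAP-IL6 at 7.53, 8.40, 11.8 and 1.97 CPM. Replicates 1 to 3 of GFAP-IL6 lay above all WT libraries and replicate 4 below them, and the log2 fold change was 0.81 (SE 0.45, edgeR adjusted p = 0.835). At 10 ng the groups overlapped widely, at 1.32 to 13.1 and 2.95 to 14.7 CPM. At 0.5 ng all 4 WT libraries were at 0, and GFAP-IL6 libraries had 0, 6, 10 and 40 counts (exact permutation p = 0.143).

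Ifit1 and Ifit3 encode cytoplasmic proteins that bind viral RNA, and their log2 fold changes were positive at 50 ng and negative at 10 ng without passing the test at either. At 50 ng Ifit1 held 1.38, 3.76, 5.29 and 2.92 CPM in WT and 6.95, 2.80, 5.99 and 5.38 CPM in GFAP-IL6, with a log2 fold change of 0.74 (SE 0.42, edgeR adjusted p = 0.835). At 10 ng the log2 fold change of Ifit1 was -0.61 (SE 0.63, edgeR adjusted p = 0.851), with WT replicate 1 at 10.7 CPM the highest of the 8 libraries. For Ifit3 the 50 ng values were 6.36, 9.03, 6.68 and 10.2 CPM in WT and 15.6, 22.4, 14.8 and 4.30 CPM in GFAP-IL6. Its GFAP-IL6 replicates 1 to 3 exceeded every WT library and replicate 4 lay below every WT library. The log2 fold change of Ifit3 was 0.67 at 50 ng (SE 0.38, edgeR adjusted p = 0.835) and -0.25 at 10 ng (SE 0.40, edgeR adjusted p = 0.905). Ifit3 has the near copy Ifit3b, so its unique reads may be split.

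Bst2, the protein tetherin that holds budding virus particles at the cell surface, did not separate the genotypes at the larger amounts. At 50 ng it held 3.32, 3.76, 2.78 and 2.26 CPM in WT and 4.06, 3.73, 3.00 and 1.79 CPM in GFAP-IL6, a log2 fold change of 0.01 (SE 0.44, edgeR adjusted p = 0.997). At 0.5 ng the order was the reverse of that of Ifitm3, with WT at 11.6, 23.8, 14.7 and 7.98 CPM and GFAP-IL6 at 6.41, 6.78, 3.66 and 2.57 CPM. All GFAP-IL6 values of Bst2 lay below all WT values there, but the log2 fold change of -1.62 had an SE of 1.22 and an edgeR adjusted p of 0.9999. These values rest on 2 to 21 counts per library.

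**Figure D3:**
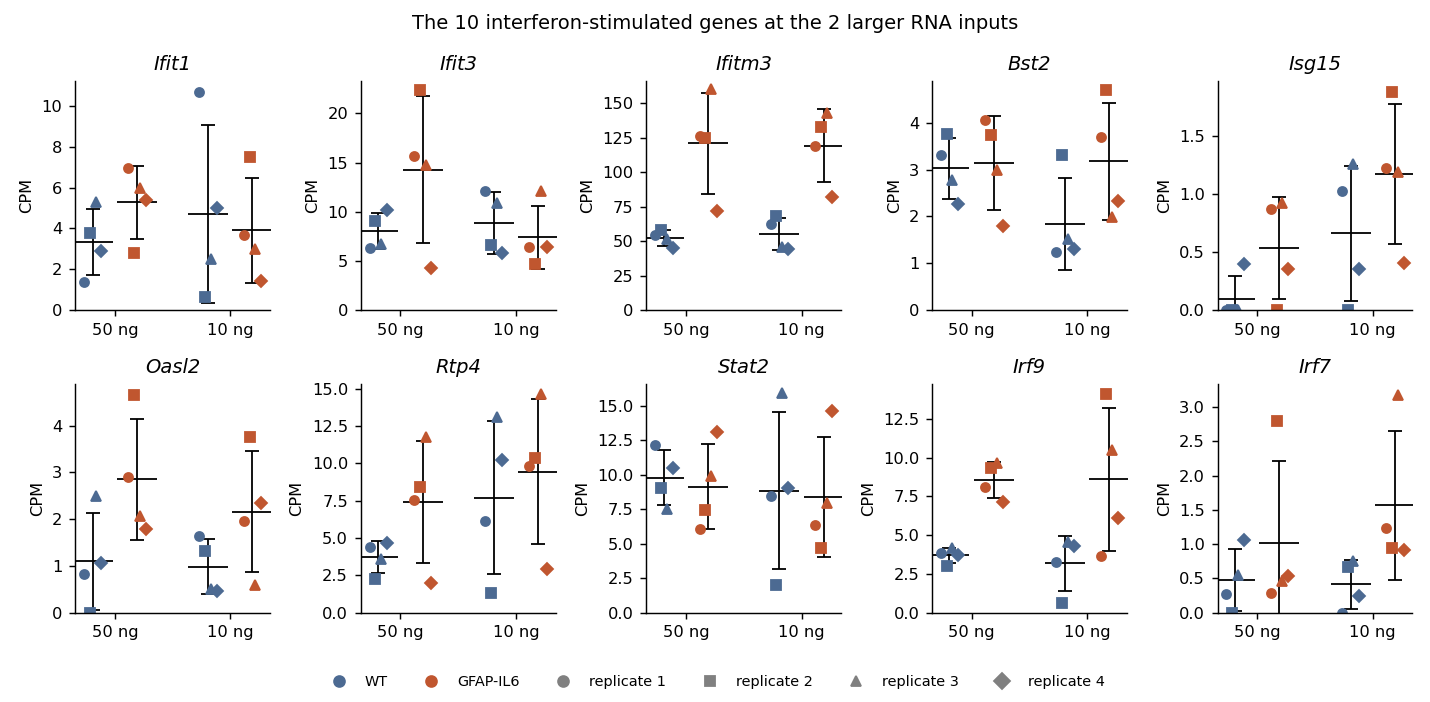
CPM of each of the 10 members in the 16 libraries made from 50 and 10 ng, WT in blue and GFAP-IL6 in orange, with a marker shape for each replicate and the mean ± SD in black (bars cut at 0). Each panel has its own axis from 0, Ifitm3 alone separates the genotypes at both amounts, and Isg15 and Irf7 stay under 3.2 CPM.

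Read against the whole table, the count of members that passed the test was small but so was the background. At 50 ng, 1 of the 7 members tested was called higher (edgeR adjusted p under 0.05) against 33 of 11773 genes (0.280%), and 2 of 7, Irf9 and Ifitm3, were higher at an unadjusted p under 0.05 against 4.13% of genes. The same 2 members did not overlap between genotypes at 50 ng, against 2.17% of genes with all GFAP-IL6 values above all WT values. At 10 ng, 1 of 7 was called against 0.299% of genes, 2 of 7 had an unadjusted p under 0.05 against 4.72%, and 1 of 7 did not overlap against 2.77%.

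At 1 ng, edgeR called 0 of 2 tested members against 0.0323% of genes, and 1 of 2, Ifitm3, had an unadjusted p under 0.05 against 1.89% and did not overlap against 1.68%. DESeq2 called Ifitm3 at 1 ng. At 0.5 ng, edgeR called 0 of 3 against 0.0117%, and 1 of 3, Ifitm3, had an unadjusted p under 0.05 against 1.49% and lay above all WT libraries against 1.47%. Another 1 of these 3, Bst2, lay below all WT libraries there, and the share of all genes that did so was not counted. DESeq2 called 0 members at 0.5 ng. On the summed counts 1 of 8 was called against 0.454%, 2 of 8, Irf9 and Ifitm3, had an unadjusted p under 0.05 against 5.36%, and 2 of 8, Ifitm3 and Oasl2, did not overlap against 2.80%. No member was called lower in any of these 5 comparisons, and on the summed counts 0 of 8 were lower at an unadjusted p under 0.05 against 2.54% of genes.

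The median log2 fold change of the members tested was 0.74 at 50 ng, 0.14 at 10 ng and 0.57 on the summed counts, where the median of all genes tested was -0.00, 0.00 and 0.01. Without Ifitm3 the members' medians were 0.71, 0.04 and 0.44. At 50 ng 6 of 7 tested members had a positive log2 fold change against 49.6% of genes, at 10 ng 4 of 7 against 50.4%, and on the summed counts 6 of 8 against 51.4%. At 50 ng, sorted by p, Ifitm3 was the 13th of 11773 genes.

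**Figure D4:**
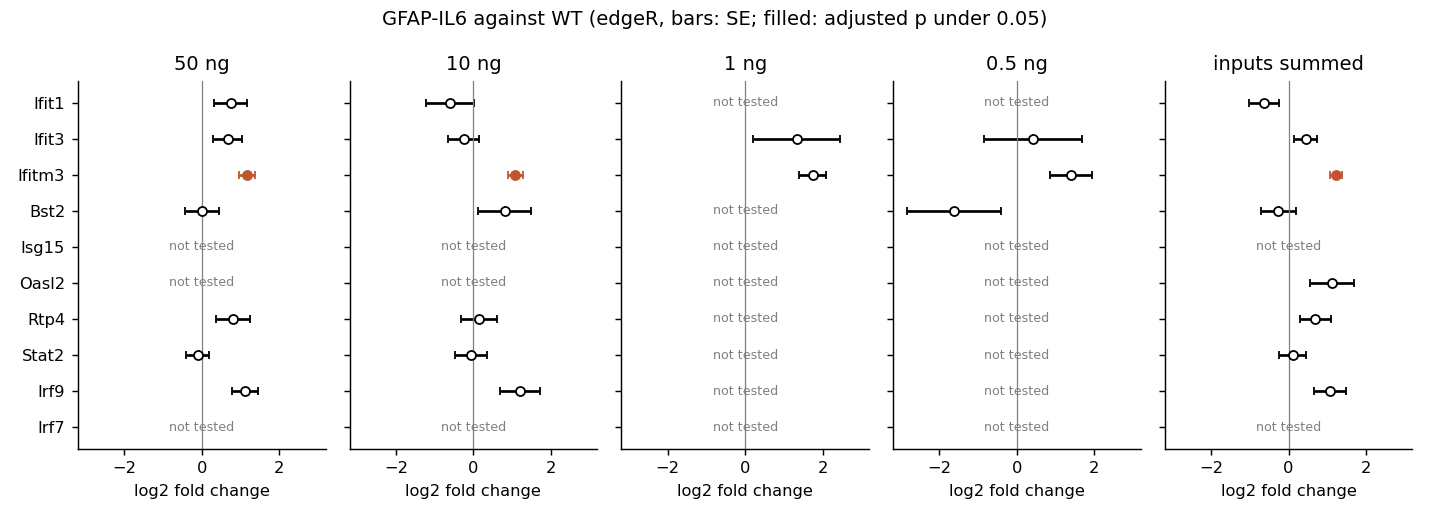
Log2 fold change of each member in GFAP-IL6 against WT (x axis) at each RNA amount and on the summed counts, with edgeR standard errors as bars and filled orange points where the adjusted p was under 0.05. Ifitm3 is filled at 50 ng, at 10 ng and on the summed counts, no other member is filled, and members under the filter on low counts are marked as not tested.

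Whether the genotype effect changed with the amount of RNA was tested as an interaction in a single fit that treated all 32 libraries as independent, which 7 members entered. Libraries of the same genotype and number at 50 and 10 ng deviated together from their group means, by r = 0.0772 to 0.237 in WT and 0.0516 to 0.510 in GFAP-IL6 across genes, so this independence was not met in full. Against 50 ng, edgeR called 0 of 7 members at 10 ng (0% of 12164 genes), 0 at 1 ng (0%) and 0 at 0.5 ng (0.197%), and DESeq2 called 0 in each. At an unadjusted p under 0.05 there were 0 members at 10 ng (0.00822%), 0 at 1 ng (2.74%) and 1 at 0.5 ng (10.7%), which was Rtp4 (edgeR adjusted p = 0.189), the gene with all WT libraries at 0. For Ifitm3 the difference in log2 fold change from 50 ng was -0.11 (SE 0.44) at 10 ng, 0.56 (SE 0.45) at 1 ng and 0.17 (SE 0.45) at 0.5 ng. The adjusted p of these differences was at least 0.968 by edgeR. This does not show that the effect was equal at the 4 amounts. The single fit also gave each gene 1 spread for all amounts. In separate fits, edgeR's coefficient of variation between replicates, beyond counting error, was 0.21 at 50 ng and 0.77 at 0.5 ng. For the genotype effect at 0.5 ng the single fit called 372 genes higher and 283 lower, against 1 and 0 in the separate fit. Few calls at 10 ng and a low p at 0.5 ng therefore say little.

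The effect of RNA amount itself, averaged over genotypes, came from the same fit, with the same limits. It was called by edgeR for 0 of 7 members at 10 ng (0%), 0 at 1 ng (0.822%) and 0 at 0.5 ng (6.72%). At an unadjusted p under 0.05 the counts were 0 (0.534%), 0 (8.25%) and 2 (20%), the latter Rtp4 and Bst2. DESeq2 called Bst2 at 0.5 ng and 0 members at the other 2 amounts.

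Other genes of the interferon pathway were taken from lists and tested on the summed counts. Of 48 further type I interferon-stimulated genes, 31 were tested, 2 were called higher and 0 lower, against 0.454% of all genes called higher. Their median log2 fold change was 0.51. At an unadjusted p under 0.05, 9 of the 31 were higher and 0 lower, against 5.36% and 2.54% of all genes. A positive log2 fold change was seen in 25 of the 31, against 51.4% of all genes. Ifitm1, a neighbour and relative of Ifitm3, went from 6.18 ± 1.31 to 18.6 ± 7.55 CPM (SD, n = 4) with a log2 fold change of 1.53 (SE 0.30, edgeR adjusted p = 0.0075). Lgals3bp, a secreted galectin-binding glycoprotein, went from 10.1 ± 1.03 to 26.7 ± 7.71 CPM (SD, n = 4) with a log2 fold change of 1.37 (SE 0.24, edgeR adjusted p = 0.00311). In both genes all 4 GFAP-IL6 sums lay above all WT sums. At 50 ng the list had 1 call of 18 tested, Lgals3bp, and at 10 ng 0 of 19 by edgeR, with 5 of 19 higher at an unadjusted p under 0.05 against 4.72% of all genes.

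Of the other interferon lists no gene was called by edgeR. The 10 interferon ligand genes were at 0 in every 50 and 10 ng library but for 1 gene in 1 WT library at 50 ng, and 0 of them could be tested. The gene seen was Ifnk, and Ifnb1 was at 0 at 50 ng. On the summed counts 5.36% of all genes were higher and 2.54% lower at an unadjusted p under 0.05, the background for the next 3 lists. Of 13 receptor and signalling genes, 12 were tested with 0 calls, 4 higher and 0 lower at an unadjusted p under 0.05 and a median of 0.37. The kinase gene Jak1 had a log2 fold change of 0.10 (SE 0.14) and Ifngr2, a receptor subunit for interferon gamma, 0.04 (SE 0.19). Of 13 genes that sense nucleic acids or relay that signal, 10 were tested with 0 calls, 2 higher and 0 lower at an unadjusted p under 0.05 and a median of 0.53. The kinase gene Tbk1 had a log2 fold change of 0.04 (SE 0.17) and the transcription factor gene Irf3 -0.02 (SE 0.23).

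Of 25 genes induced mainly by interferon gamma, 13 were tested with 0 calls and a median of 0.03. At an unadjusted p under 0.05, 1 was higher, Psmb8, and 2 were lower, Psmb10 and Tap1. Psmb8 and Psmb10 both encode immunoproteasome subunits and had log2 fold changes of 0.94 (SE 0.25, edgeR adjusted p = 0.101) and -0.27 (SE 0.13, edgeR adjusted p = 0.623). Psmb10 stood at 120 ± 9.57 CPM in WT and 101 ± 8.26 CPM in GFAP-IL6 (SD, n = 4), and Tap1, a peptide transporter gene, had a log2 fold change of -1.31 (SE 0.60, edgeR adjusted p = 0.613). DESeq2 called 0 sensing genes, 1 receptor or signalling gene and 1 interferon gamma gene.

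The genes listed for interleukin 6 and STAT3 gave 3 calls of 20 tested on the summed counts, against 0.454% of all genes called higher. They include the transgene's gene Il6 and the receptor genes Il6ra and Il6st beside response genes. Their median log2 fold change was 0.68. At an unadjusted p under 0.05, 10 of the 20 were higher and 0 lower, against 5.36% and 2.54% of all genes. Il6 itself was among the 10, at a log2 fold change of 3.15 (SE 0.75, edgeR adjusted p = 0.0551), which the transgene alone could give. Lrg1, a secreted glycoprotein induced through STAT3, had a log2 fold change of 2.12 (SE 0.23), Gfap, the astrocyte filament gene, 2.15 (SE 0.24) and Stat3 itself 0.96 (SE 0.21, edgeR adjusted p = 0.0317). The promoter of Gfap also drives the transgene.

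Markers of other cell types moved with the genotype in the same libraries, and in bulk tissue more cells of a type and more RNA per cell cannot be told apart. Of 15 microglia and macrophage genes, 15 were tested on the summed counts and 8 were called higher, against 0.454% of all genes. Among them were Ctss, a lysosomal protease, at a log2 fold change of 1.72 (SE 0.15) and Itgam, a surface integrin, at 1.77 (SE 0.26). The list median was 0.87. The complement genes C1qb and C1qc were also called, at log2 fold changes of 1.14 (SE 0.15) and 1.06 (SE 0.14). The summed level of the 15 genes at 50 ng was 807 to 955 CPM in WT and 1037 to 2244 CPM in GFAP-IL6. In GFAP-IL6 replicate 4 was lowest at 1037 CPM and the other 3 stood at 1653 to 2244 CPM. Ifitm3 was likewise lowest in that library of the group, as were Il6 at 0.717 CPM and Gfap at 30.6 CPM, while the astrocyte list was highest there. The oligodendrocyte list was lowest there too, at 3546 CPM against 4935 to 7414 CPM in the other 3. So was the neuron list, at 5962 CPM against 6007 to 6500 CPM. At 10 ng GFAP-IL6 replicate 4 was again lowest for the microglia list, at 1363 CPM against 1583 to 2186 CPM in the other 3. It was also lowest for the oligodendrocyte list at 10 ng, at 4079 CPM against 4229 to 7512 CPM. At 1 ng Ifitm3 was lowest in GFAP-IL6 replicate 2 and the microglia list in replicate 4. At 0.5 ng Ifitm3 was lowest in GFAP-IL6 replicate 3, where the microglia list was highest at 2446 CPM.

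Of 7 endothelial genes 1 was called higher on the summed counts, against 0.454% of all genes. It was Ly6c1, at a log2 fold change of 0.58 (SE 0.14, edgeR adjusted p = 0.0460), and the list median was 0.93. At an unadjusted p under 0.05, 5 of the 7 were higher and 0 lower, against 5.36% and 2.54% of all genes. Flt1, a receptor of vascular growth factor, had a log2 fold change of 0.93 (SE 0.26, edgeR adjusted p = 0.162). The call of Ly6c1 was lost when any of the 4 WT replicates or GFAP-IL6 replicate 1 or 2 was left out, and with DESeq2 size factors. The summed endothelial level at 50 ng was 104 to 135 CPM in WT and 167 to 202 CPM in GFAP-IL6, and there replicate 4, at 191 CPM, was not the lowest. Other leukocyte genes had 0 calls of 4 tested by edgeR, 0 at an unadjusted p under 0.05 and 0 by DESeq2, and their summed levels overlapped, at 29.5 to 38.4 CPM in WT and 30.8 to 41.5 CPM in GFAP-IL6, with 8 and 5 of 17 genes at 0 in all libraries of the group. Astrocyte, neuron and oligodendrocyte lists had 0 calls of 7, 8 and 6 tested by edgeR, with medians of 0.09, -0.03 and -0.12. Among their abundant genes the log2 fold changes were 0.41 (Slc1a2) and -0.07 (Aldoc), -0.17 (Snap25) and 0.02 (Syt1), and -0.23 (Mbp), and those of the leukocyte genes Siglech and Flt3 were -0.12 and 0.43, none with an edgeR adjusted p under 0.05. The part of these cell types in the Ifitm3 difference was not tested.

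**Figure D5:**
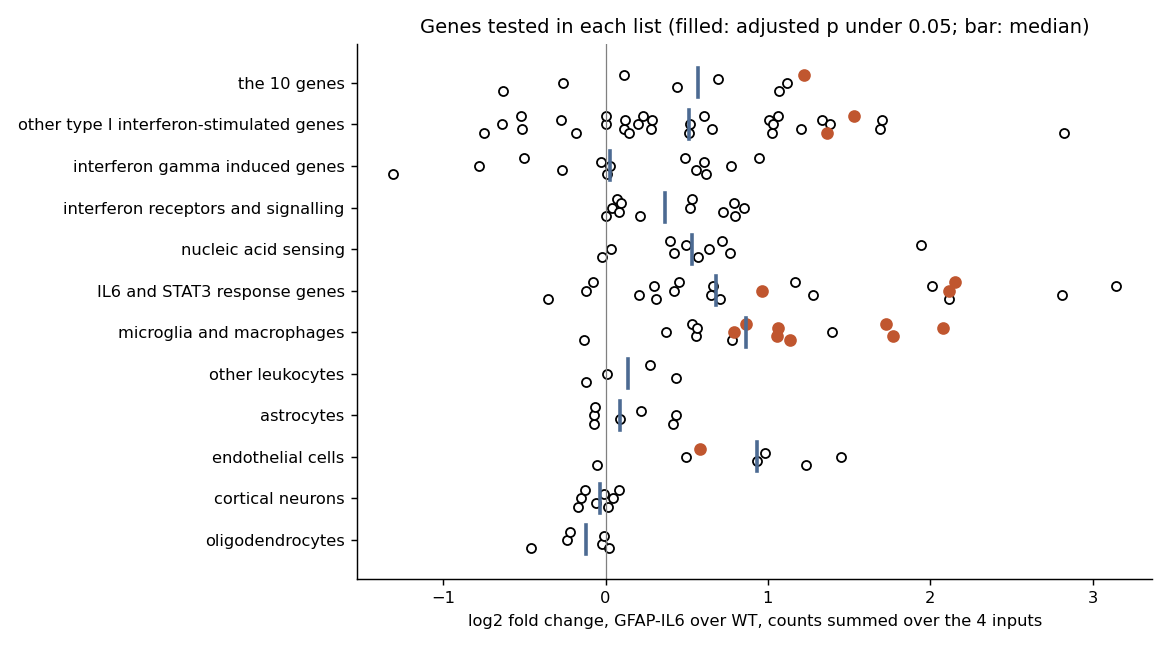
Log2 fold change of every tested gene of each list in GFAP-IL6 against WT on counts summed over the 4 RNA amounts (x axis), with 1 row of points per list, filled orange points at an adjusted p under 0.05 and the list median as a blue bar. The 10 members have 1 filled point, Ifitm3, the other type I interferon-stimulated genes 2, the interleukin 6 and STAT3 list 3 and the microglia list 8.

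How far the members varied together within a genotype could not be settled from these counts. At 50 ng Isg15 had 0 to 4 and Irf7 0 to 8 counts per library, and counting error in such genes weakens r. After the genotype means were subtracted, the 45 pairs of members had a median Pearson r of 0.03 over the 8 libraries at 50 ng, from -0.69 to 0.83, and a median of 0.15 at 10 ng, from -0.80 to 0.78. Over the 8 summed samples, the genes whose level was most like the mean log2(CPM + 1) of the members were Mybl1 (r = 0.965), Sh2b2 (0.964), Smarcd2 (0.962), Ntpcr (0.960) and Ccl5 (0.952). With the genotype means subtracted they were Eftud2 (r = 0.987), AI837181 (0.985), Eif4a3 (0.983), Coro1c (0.980) and Chst14 (0.973), so no gene was in both sets of 5. These are the largest r of many genes over 8 points that share their libraries, given as a description.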

How the data were processed

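Per the study's methods, the authors removed poly(A) stretches from the reads, used STAR 2.4 for alignment and assigned uniquely placed reads to genes with featureCounts. The deposited values are whole-number counts, not normalized, for 33000 genes in 32 libraries; gene length played no part. The submitters' processing notes name a human build, while the methods name the mouse build matching GRCm38, used here. Groups came from the labels. Differential expression was tested with edgeR 4.0.16 in R 4.3.3 (TMM, filterByExpr, quasi-likelihood test, Benjamini-Hochberg over all genes tested; call: adjusted p under 0.05), 4 against 4 libraries, without covariates, and again on counts summed over the 4 amounts by genotype and replicate number. Nothing states that same-numbered libraries share RNA or that replicates are separate animals, so p-values measure only the spread between these samples. Counts of the 48 replicate pairs differed by a chi-square of at least 2.37 per degree of freedom, so none was treated as a repeat deposit.

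Interaction and amount effects came from 1 fit of all libraries. Members under the filter were tested by exact permutation of CPM. Alternatives were DESeq2 size factors, the DESeq2 1.42.0 test, limma 3.58.1 voom (interaction and amount), no filter, a replicate block, an added fold threshold, TMM-scaled CPM, a single fit and leaving out each replicate. Scripts were tested on simulated data. Python 3.11.15, numpy 2.4.6, pandas 2.3.3 and matplotlib 3.10.9 were used otherwise. Named were all members, up to 4 called genes of each list (with under 2 calls also the 2 of highest CPM) and the 5 genes most like the members; other names were chosen after their values were seen. A gene that the rule names is not reported here. Members and lists were chosen with earlier results of these data known. Of the listed symbols 4 matched no row, and Gbp6 and Trex1 matched 2, of which the row with more counts was used.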

Additional observations from a re-analysis of the deposited data

Results flagged for a closer look

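Within groups of 4 libraries, the gap of the highest or lowest library to its neighbour, divided by the range, was compared with Dixon's 95% critical value for 4 samples. Of 73 groups 15 exceeded it, where chance flags about 1 in 20, and 11 of the 15 had at least 2 libraries at 0, where a single library with counts gives a ratio near 1 by construction. Ifitm3 stood apart in WT replicate 1 at 0.5 ng (67.4 CPM against 27.0 to 28.2, ratio 0.971), the library that came nearest to the GFAP-IL6 range. Irf9 stood apart at 1 ng in WT replicate 3 (30.5 CPM from 38 counts, 0.987) and at 0.5 ng in WT replicate 2 (10.8 CPM from 5 counts, 1.0) and GFAP-IL6 replicate 2 (67.8 CPM from 20 counts, 0.935). Irf7 did so in GFAP-IL6 replicate 2 at 50 ng (3 counts, 0.901), GFAP-IL6 replicate 3 at 10 ng (16 counts, 0.860) and WT replicate 4 at 1 ng (7 counts, 1.0). Bst2 did so in WT replicate 2 at 10 ng (5 counts, 0.864). At a ratio of 1.0, with the other 3 libraries at 0, were Isg15 in WT replicate 4 at 50 ng (3 counts) and GFAP-IL6 replicate 4 at 0.5 ng (2 counts), Stat2 in GFAP-IL6 replicate 4 at 0.5 ng (97 counts), Oasl2 in WT replicate 3 at 1 ng (1 count), GFAP-IL6 replicate 3 at 1 ng (11 counts) and WT replicate 4 at 0.5 ng (4 counts), and Rtp4 in WT replicate 4 at 1 ng (6 counts).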

How the results depend on the processing

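Low counts limit the members most at 1 and 0.5 ng, where 7 or 8 of 10 were not tested. The single fit of all libraries called 0 members higher at 50 ng and 0 at 10 ng. It called 1 at 1 ng (Ifitm3) and 2 at 0.5 ng (Ifitm3 and Rtp4). That fit gave each gene 1 spread for all amounts and called 372 genes higher at 0.5 ng, against 1 in the separate fit. At 1 ng the DESeq2 test and no filter each called 1 (Ifitm3). Leaving out each replicate gave 0 to 1 calls at 50 ng and, for the RNA amount at 0.5 ng, 0 to 1 (Stat2, without GFAP-IL6 replicate 4), where DESeq2 called 1 (Bst2). With TMM-scaled CPM, 0 members had all GFAP-IL6 values above all WT values at 0.5 ng. The members' median moved to 0.71 (DESeq2) and 0.69 (no filter) at 10 ng, to 0.89 and 0.87 on the summed counts, and to 0.95 in the single fit at 1 ng. Over the left-out replicates it ran from 0.57 to 1.01 at 50 ng, -0.12 (without WT replicate 2) to 0.49 (without GFAP-IL6 replicate 4) at 10 ng, 0.85 (without WT replicate 3) to 1.998 at 1 ng, -0.94 (without GFAP-IL6 replicate 1) to 0.80 (without WT replicate 3) at 0.5 ng and 0.40 to 0.82 on the summed counts. Filters and left-out libraries change which members are tested and enter the median.

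Leaving out replicates turned the sign of uncalled values: at 50 ng Bst2 (-0.20 to 0.28) and Stat2 (-0.35 to 0.053), at 10 ng Ifit1 (-0.98 to 0.12), Rtp4 (-0.19 to 0.49) and Stat2 (-0.50 to 0.28), at 0.5 ng Ifit3 (-0.028 to 0.80) and the Ifitm3 interaction (-0.016 to 0.60), and on the summed counts Stat2 (-0.45 to 0.32). The cause was not tested. Same-numbered WT and GFAP-IL6 libraries deviated together by r = 0.0361 to 0.189 at 50 ng and at most 0.131 at the other amounts. Replicate 3 had the lowest share of counts from mitochondrial genes in every group, at 50 ng 12.4% in WT and 12.7% in GFAP-IL6. Whether the numbers pair the genotypes is not given, and the main fits did not pair them. With the replicate number as a block, Bst2 at 50 ng was -0.019 and Stat2 on the summed counts -0.042, Ifitm3 was 1.12 at 50 ng, and the block changed no member's call. The same block gave 163 genes called higher on the summed counts, against 61 without it.

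Over the alternatives, the genes called higher numbered 3 to 90 at 50 ng (33 as reported, 78 without GFAP-IL6 replicate 4, 11 without WT replicate 4), 4 to 68 at 10 ng, 2 to 12 at 1 ng, 1 to 372 at 0.5 ng and 48 to 163 on the summed counts. Of the other type I interferon-stimulated genes, 1 to 4 were called on the summed counts (1 without GFAP-IL6 replicate 3), and at 50 ng, where Lgals3bp was the 1 call, 0 were called when any replicate but GFAP-IL6 replicate 4 was left out, and 2 without that replicate. Microglia genes numbered 8 to 10 on the summed counts and 1 to 10 at 50 ng (10 without GFAP-IL6 replicate 4).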
